A study of Mus musculus with 3 samples.

Results

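The MAP kinase phosphatases of the Dusp family were profiled in ureteric duct cells of mouse embryos. They were taken by name (Dusp1, Dusp2, Dusp4, Dusp5, Dusp6, Dusp7, Dusp8, Dusp9, Dusp10 and Dusp16), and all 10 were measured among 19938 genes. The study comprised 3 arrays of a single group, with no second condition. Each array held RNA of GFP-positive cells sorted from 1 dissected, trypsin-dissociated ureteric duct of a CD-1 embryo at 10.5 days post coitum (Theiler stage 18), of unknown sex. All embryos carried the transgene Tg(Hoxb7-EGFP)33Cos, in which the Hoxb7 promoter, active in the nephric duct and its derivatives, drives a green fluorescent protein. The labels do not say whether the ducts came from separate embryos or litters. The p-values therefore cover variation among these 3 samples, and that variation may be technical.

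MAP kinases are switched on by phosphorylation of a threonine and a tyrosine in their activation loop. The MAP kinase phosphatases remove both phosphates and so end the signal. Many of their genes are themselves induced by the kinases they inactivate, which makes them feedback inhibitors. In the ureteric bud, the receptor tyrosine kinases Ret and Fgfr2 signal in part through ERK, and Dusp6 is widely used as a readout of that signalling. Dusp1, Dusp2, Dusp4 and Dusp5 encode nuclear, inducible enzymes. Dusp6, Dusp7 and Dusp9 encode mainly cytoplasmic enzymes that prefer ERK, while the products of Dusp8, Dusp10 and Dusp16 prefer JNK and p38.

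Inducible genes are known to be switched on through short binding sites near their start, so the upstream bases of 4 members are shown. RefSeq (GRCm38.p6) windows were at hand for 8 of the 10 genes, and the 250 bases before the annotated start were searched on both strands. Capitals mark the full cyclic AMP response element (CRE, TGACGTCA), which binds CREB-family factors, and the CArG box, which binds SRF. Dusp1, Dusp5 and Dusp8 are shown for their matches, and Dusp6, the ERK feedback gene, for having no capital in its window. Each is read along the strand of its gene.
Dusp1, chr17:26508473-26508722, minus strand: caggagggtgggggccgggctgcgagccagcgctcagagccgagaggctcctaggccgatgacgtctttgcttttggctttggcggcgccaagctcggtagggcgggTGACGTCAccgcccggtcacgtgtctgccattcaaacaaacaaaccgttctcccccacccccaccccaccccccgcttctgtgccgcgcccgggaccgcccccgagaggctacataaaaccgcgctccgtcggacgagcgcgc
Dusp5, chr19:53528895-53529144, plus strand: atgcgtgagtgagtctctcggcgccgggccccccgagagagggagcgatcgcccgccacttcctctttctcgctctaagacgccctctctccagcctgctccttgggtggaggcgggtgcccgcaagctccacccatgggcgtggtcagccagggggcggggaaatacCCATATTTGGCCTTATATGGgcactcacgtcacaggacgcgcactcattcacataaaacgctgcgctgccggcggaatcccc
Dusp8, chr7:142095285-142095534, minus strand: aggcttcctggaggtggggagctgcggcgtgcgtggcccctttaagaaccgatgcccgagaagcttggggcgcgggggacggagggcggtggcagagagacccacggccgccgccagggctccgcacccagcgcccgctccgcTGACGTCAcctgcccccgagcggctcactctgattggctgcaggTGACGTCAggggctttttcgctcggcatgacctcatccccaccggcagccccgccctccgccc
Dusp6, chr10:99262981-99263230, plus strand: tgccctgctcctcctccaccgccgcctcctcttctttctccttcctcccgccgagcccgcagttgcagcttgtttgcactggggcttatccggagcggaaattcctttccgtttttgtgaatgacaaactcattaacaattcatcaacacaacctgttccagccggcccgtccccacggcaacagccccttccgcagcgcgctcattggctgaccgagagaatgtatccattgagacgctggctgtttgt

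The full CRE was found in 2 of the 8 windows, once in Dusp1 and at 2 places in Dusp8, against 1.55% of 32851 windows of the same length. A pair of adjoining CArG boxes lay in the window of Dusp5, ending 63 bases before the start, and 1.47% of all windows held such a box. None of the 8 windows held the AP-1 site TGANTCA (6.75% of all windows) or the Ets site CCGGAAG (6.91%). The shares of all windows were not matched for G and C content. A match is a description of these letters and not evidence of binding. The arrays did not measure any factor at these sites.

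Values are the deposited log2 signals. Background on each array was read from 1212 probe sets for receptors of smell and pheromones, which sensory neurons use. Their 95th percentile, the cutoff, came to 5.69, 5.73 and 5.70 on arrays 1, 2 and 3. A gene was called above background where limma's one-sided test gave a Benjamini-Hochberg adjusted p under 0.05 across all named probe sets. Of the phosphatase genes, 9 of 10 were above background, against 56.2% of all genes. Their median signal was 6.47, against 6.04 for all genes. Probe sets differ in affinity, so a signal or its margin over the cutoff does not rank the transcript amounts of different genes. Bulk samples also cannot tell fewer expressing cells from less RNA per cell.

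**Figure D1:**
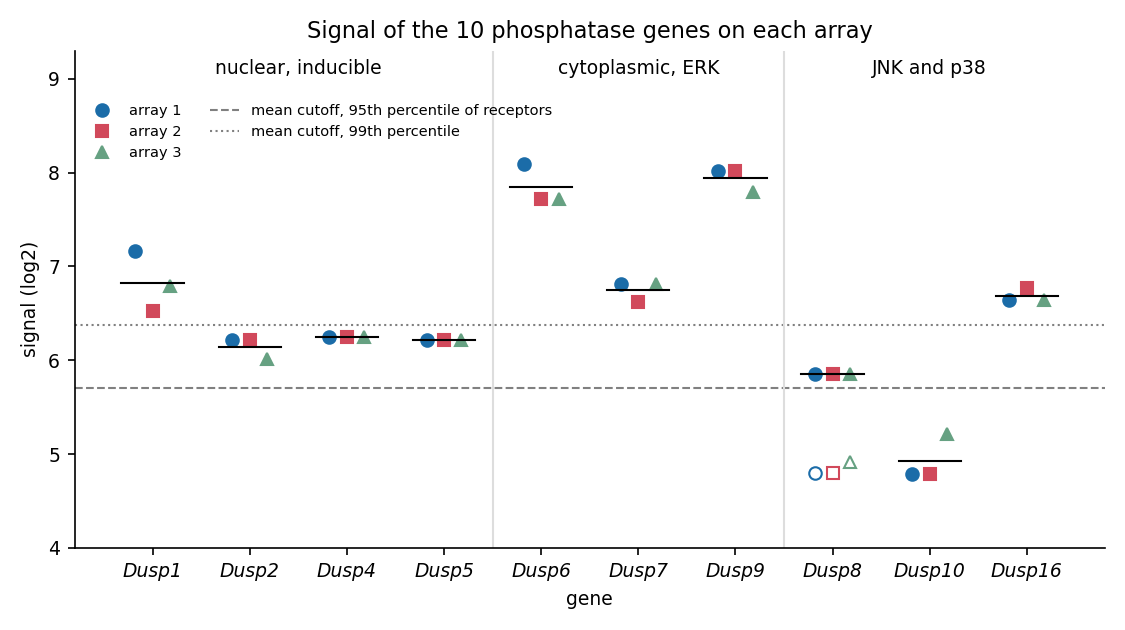
Log2 signal of the 10 phosphatase genes on arrays 1, 2 and 3 (filled symbols), with the mean as a bar and genes grouped by the location and preferred kinase of their products. Open symbols are the second Dusp8 probe set, and horizontal lines are the mean background cutoffs at the receptors' 95th and 99th percentiles. Dusp6 and Dusp9 lie far above both lines, Dusp8 lies just above the lower line, and Dusp10 lies below it on every array.

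The cytoplasmic ERK phosphatases were above background in 3 of 3 cases, against 56.2% of all genes. Dusp9 and Dusp6 cleared the cutoff by over 2 log2 units. Dusp9, the X-linked member known from mice to be needed in the placenta, read 8.02, 8.02 and 7.80 on arrays 1, 2 and 3. It lay 2.24 log2 units above the cutoff with an SD of 0.13 (n = 3, limma, adjusted p = 5.3e-05). Dusp6, the feedback phosphatase of FGF and Ret signalling, read 8.09 on array 1 and 7.72 on arrays 2 and 3. Its signal was 2.14 log2 units above the cutoff, with an SD of 0.21 (n = 3, limma, adjusted p = 0.00027). Both genes stood clear of the cutoff on each array, and array 1 held the highest Dusp6 value. Dusp7, which encodes a close relative of the Dusp6 product, read 6.81, 6.62 and 6.81. It was 1.04 log2 units above the cutoff (SD 0.11, n = 3, limma, adjusted p = 0.00041). Array 2 gave the lowest of its values.

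The nuclear, inducible group was above background in 4 of 4 cases, against 56.2% of all genes, at a median signal of 6.23. Dusp1, an immediate early gene whose product acts on p38, JNK and ERK, read 7.16, 6.53 and 6.79 on arrays 1, 2 and 3. It was the only member with a different value on every array, and its range of 0.63 log2 units was the widest of the family. The mean lay 1.12 log2 units above the cutoff, with an SD of 0.32 (n = 3, limma, adjusted p = 0.0047). Dusp4, whose product acts on ERK and JNK, read 6.25 on all 3 arrays, and Dusp5, the ERK-specific nuclear member, read 6.21 on all 3. Dusp2, first known from activated lymphocytes, read 6.21, 6.21 and 6.01. These signals lay 0.54, 0.51 and 0.44 log2 units above the cutoff for Dusp4, Dusp5 and Dusp2 (limma, adjusted p = 6.1e-05, 7.2e-05 and 0.0034). With the cutoff moved to the 99th percentile, a mean of 6.38, Dusp1 stayed above background, while Dusp2, Dusp4 and Dusp5 lay at -0.23, -0.13 and -0.16 log2 units from the cutoff and lost their calls.

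Of the JNK and p38 phosphatases 2 of 3 were above background, against 56.2% of all genes, and the call of one of them, Dusp8, ended in 7 of the 14 alternative settings. Dusp16 read 6.64, 6.77 and 6.64, a mean of 0.97 log2 units above the cutoff with an SD of 0.07 (n = 3, limma, adjusted p = 7.1e-05). Dusp8 read 5.85 on every array from its brighter probe set, 0.14 log2 units above the cutoff (limma, adjusted p = 0.0022). Its other probe set read 4.80, 4.80 and 4.91, below the cutoff on each array, so the probe sets of Dusp8 disagree about its call. The Dusp8 call was also lost without array 3 (limma, adjusted p = 0.279), although that fit gave all probe sets one spread. Dusp10 read 4.78, 4.78 and 5.22 and was the only member not above background, at -0.78 log2 units from the cutoff. Its highest value, on array 3, lay at -0.48 log2 units from that array's cutoff. Such a signal is not distinguishable from background on these arrays, which does not show that the transcript is absent.

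**Figure D2:**
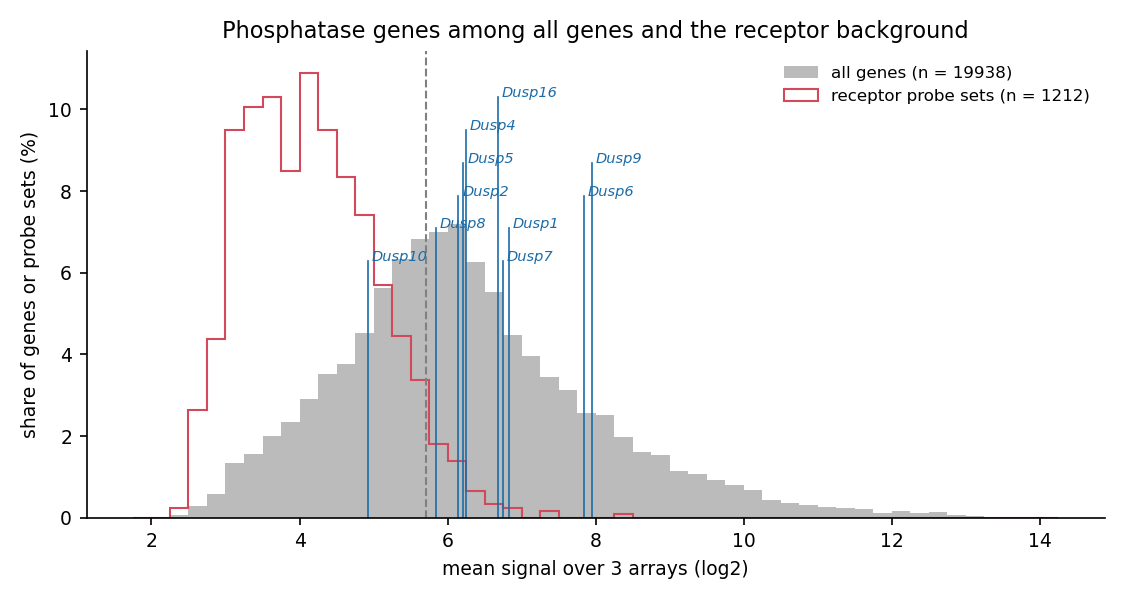
Distribution of mean log2 signal over 3 arrays for all 19938 genes (grey) and the 1212 receptor probe sets (red outline), as percent of each set, with the 10 phosphatase genes as blue lines. The dashed line is the mean cutoff of 5.71; Dusp10 lies left of it among the receptor probe sets, and Dusp6 and Dusp9 lie to the right of nearly all of them.

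Identical values limit the error that can be given for these genes. Dusp4, Dusp5 and Dusp8 held one value on all 3 arrays, as did 50.8% of all genes. A further 6 members held one value on 2 arrays, against 28.9% of genes, and Dusp1 alone held 3 values, against 20.3%. SDs and p-values of the tied genes are therefore too small, and this holds also for tied genes of the other lists given below. Values were also shared between probe sets: 14 of the 30 member values (46.7%) occurred on another probe set of the same array, against 58.1% over all genes. Dusp4 had exactly the values of 42 other probe sets on all 3 arrays, among them the phosphatase gene Ptpn7, the transcription factor gene Klf4 and 3 olfactory receptor genes. Dusp5 shared its values with 30 others, and Dusp2 held the same 6.2143 as Dusp5 on arrays 1 and 2. Dusp6, Dusp7, Dusp16 and the brighter Dusp8 probe set shared no value with another probe set of the same array. On arrays 1 and 2, Dusp10 had a value held by 108 probe sets. The Dusp9 values were held by 5, 4 and 9 probe sets on arrays 1, 2 and 3, and the Dusp1 value on array 3 by 18. Whether a shared value is specific to its gene was not tested.

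When the spread of all probe sets tied on 2 or 3 arrays was replaced by the median SD of those with 3 different values, 0.23 log2 units, 8 of 10 members remained above background, against 47.1% of all genes. Dusp8 was the one lost (limma, adjusted p = 0.323). This setting was chosen after seeing the data. At the 99th percentile cutoff 5 of 10 were called, namely Dusp1, Dusp6, Dusp7, Dusp9 and Dusp16, against 36.1% of all genes. With the cutoff raised by 1 log2 unit 2 of 10 were called, Dusp6 and Dusp9, against 28.4% of all genes. These were the members called in all 14 alternatives, and Dusp10 was called in none of them.

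**Figure D3:**
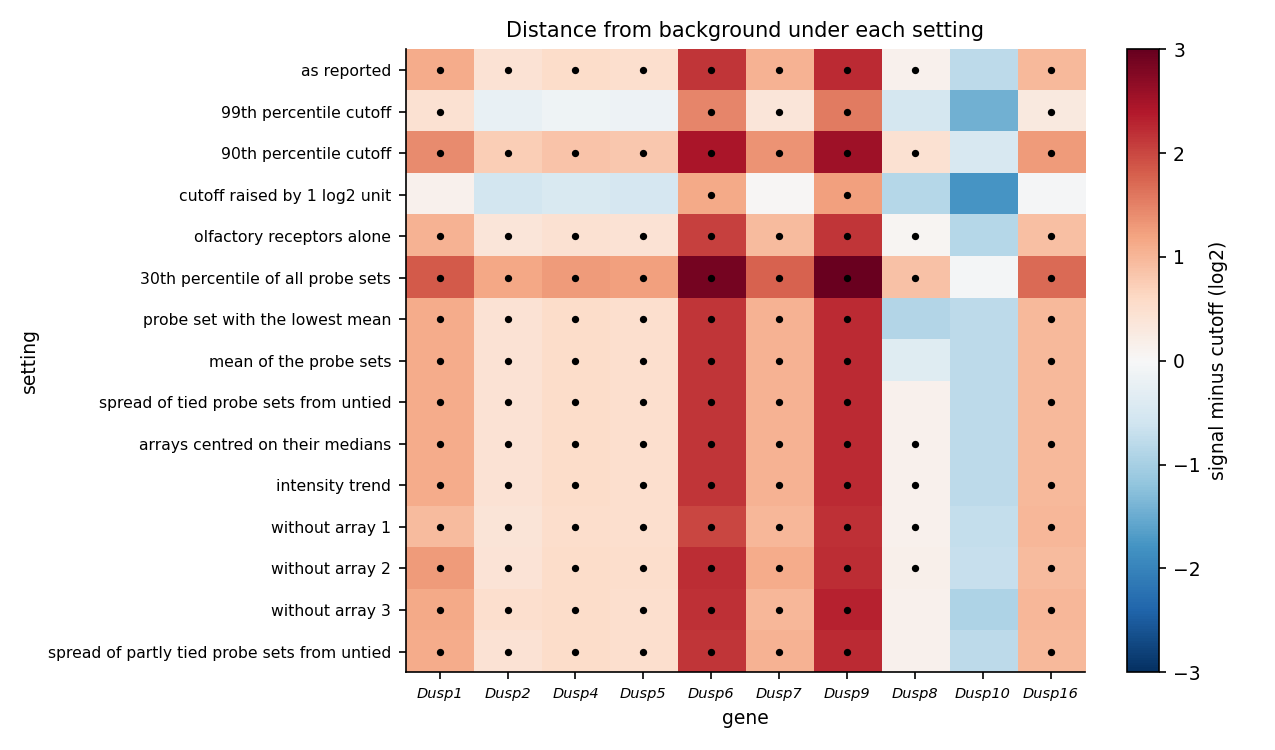
Distance of each phosphatase gene from background in log2 units (colour) under the reported setting and 14 alternatives, with a dot where the adjusted p is under 0.05. Dusp6 and Dusp9 carry a dot in every row, Dusp10 in none, and Dusp8 in 8 of the 15 rows.

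Among the arrays, Dusp1 differed most, at 0.63 log2 units higher on array 1 than on array 2 and 0.37 higher than on array 3. Dusp6 was 0.37 higher on array 1 than on either of the others. The remaining members not tied on all 3 arrays each held one value on 2 arrays, and had ranges of 0.13 to 0.43. Of these, Dusp7 was lowest on array 2, Dusp2 and Dusp9 were lowest on array 3, Dusp10 was highest on array 3 and Dusp16 highest on array 2. No member had a range over 1 log2 unit, and such a range was rare among all genes too (628 of 19938). Immediate early genes, which are induced within minutes by growth factors and by tissue dissociation, were highest on array 1 alone in 11 of 20 cases, against 10.9% of all genes, and lowest on array 2 alone in 9, against 10.4%. Dusp1 was highest on array 1 and lowest on array 2 with array 3 between them, an order that only genes with 3 different values can show. It was held by 572 of the 4055 such genes (14.1%), by all 8 such immediate early genes, and by 3 of 9 such endothelial markers. The 8 immediate early genes include Jun, Egr1, Egr2, Fos and Fosl1, the last not above background. Genes of one array are not independent, and each array is a single sample. The mean signal of the immediate early list was 7.02, 6.66 and 6.85 on arrays 1, 2 and 3, and its summed linear signal was 3891, 2424 and 3231.

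Endothelial markers also differed between arrays: 13 of 14 were above background, and 13 were lowest on array 2 alone, against 10.4% of all genes. Their summed linear signal was 4357, 2388 and 4624 on arrays 1, 2 and 3. Embryonic globin transcripts were high on array 1, with Hbb-y at 10.02 there and 5.31 and 5.45 on arrays 2 and 3. The 7 measured red cell markers summed to 1772, 296 and 298 on the linear scale, and the array 1 sum came from the globins. The other red cell markers did not share that difference, since Klf1, Alas2 and Rhag held one value on all 3 arrays and Gata1, the only one of the 7 above background, was highest on array 3. The part of endothelial cells, globin RNA and dissociation in the array differences of Dusp1 and Dusp6 was not tested. The labelled cell type was checked against its markers: 11 of 11 duct markers, among them Ret, Pax2 and Gata3, and 7 of 7 epithelial markers were above background, against 56.2% of all genes. Metanephric mesenchyme markers passed in 2 of 9 cases, stromal markers in 3 of 9, macrophage markers in 1 of 9, neural crest and neuron markers in 2 of 6, and gonadal and coelomic markers in 4 of 6, the last near the share of all genes. The endothelial list, with 13 of 14, had a median signal of 7.40, against 7.33 for the duct markers. Which cells the phosphatase signals came from was not tested.

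**Figure D4:**
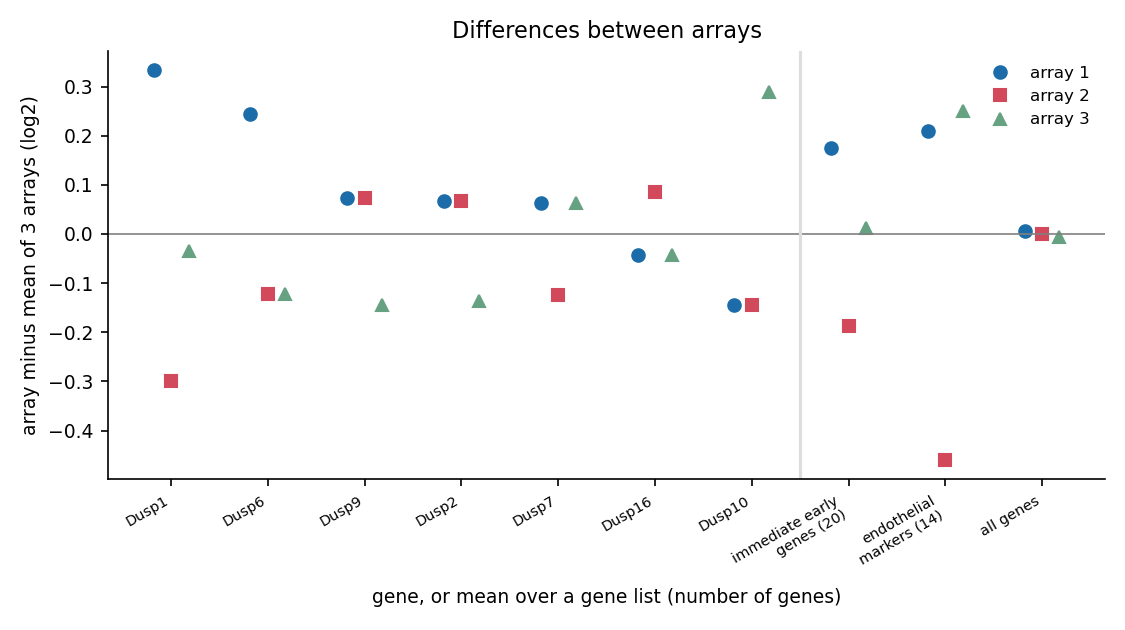
Signal on each array minus the mean of the 3 arrays (log2 units) for the 7 phosphatase genes whose values were not all tied, and for the mean over immediate early genes, endothelial markers and all genes. Dusp1, Dusp6 and the immediate early mean stand highest on array 1. Dusp1, Dusp7, the immediate early mean and the endothelial mean stand lowest on array 2, and the mean of all genes stays near 0.

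The kinases that these phosphatases act on were broadly detected. Of 12 measured MAP kinase genes 10 were above background, at a median signal of 7.08, against 56.2% and 6.04 for all genes. Nlk, an atypical MAP kinase that acts in Wnt signalling, read highest at 9.44 ± 0.28 (SD, n = 3), followed by Mapk6, which encodes ERK3, at 8.38 ± 0.11. Mapk10, the JNK gene of neurons, read 4.03 on each array and was not above background. All 6 measured MAP kinase kinase genes passed, at a median of 7.34. Map2k6, an activator of p38, read 7.66 on each array, Map2k1, an activator of ERK, 7.57 ± 0.18, and Map2k3, the lowest of the list, 6.85 ± 0.12. Raf and MAP3 kinase genes passed in 10 of 11 cases, with a median of 7.09. Map3k7, which encodes TAK1, read 8.87 ± 0.13 and Braf 7.64 ± 0.06. Map3k5, which encodes the stress kinase ASK1, was lowest at 5.90 on each array and was still above background.

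Downstream of the kinases, 11 of 13 measured target genes were above background, against 56.2% of all genes, at a median of 7.29. The ERK-activated kinase gene Rps6ka3 read 9.38 on each array and the transcription factor gene Atf2 8.86 ± 0.06, while Rps6ka5, at 5.81 ± 0.35, did not pass (limma, adjusted p = 0.49). Mapkapk3, a kinase gene below p38, ranged from 6.10 on array 2 to 7.68 on array 1. ERK feedback genes of other families passed in 9 of 11 cases, with a median of 6.53. Spred2 read 8.90 ± 0.23, Il17rd 8.75 ± 0.0047 (6.52 from its dimmer probe set) and Etv1 4.89, the last on each array and below the cutoff. Both Spred2 and Il17rd held one value on arrays 1 and 2, so their SDs are too small. Immediate early genes passed in 17 of 20 cases, with a median of 6.80. Egr2 read 9.82, 8.03 and 9.52 on arrays 1, 2 and 3, Jun 9.32, 8.37 and 8.72, Egr1 8.19, 7.07 and 7.44, and Btg2 8.07, 6.59 and 7.88. Fosl1 was lowest at 4.86 ± 0.20.

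Phosphatases outside the MAP kinase phosphatase group were above background in 13 of 18 cases, with a median of 6.14, against 9 of 10 and 6.47 for the MAP kinase phosphatases. Over all genes the share was 56.2% and the median 6.04. The outside group comprised atypical dual-specificity phosphatases, most of which lack the kinase-binding domain, and tyrosine phosphatases with a kinase interaction motif. The brighter Dusp12 probe set read 8.71 ± 0.37 and the dimmer one 5.57. Styx, a pseudophosphatase gene, read 8.24 ± 0.41 from the brightest of its 3 probe sets, whose lowest read 5.26. Dusp22 read 8.07, 7.73 and 6.17 on arrays 1, 2 and 3, a span of 1.90 log2 units. Dusp15 read 3.85 on each array and was not above background.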

How the data were processed

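RNA was amplified in 1 round and hybridised to 1 array per sample, per the labels' protocols. The authors deposited log2 signals per probe set, a scale read from their span of 1.90 to 14.2. The submitters' processing notes name Affymetrix Expression Console, and the summary method is not given in the sources used here. The table held 35557 probe sets, of which 21789 had a single gene symbol in the platform annotation and were used, 1621 had several and 12147 were unnamed here. Where a gene had several probe sets, the one with the highest mean was taken. The differences from the cutoff were tested against 0 in limma 3.58.1 (R 4.3.3), with p-values adjusted over 21789 probe sets. The test was checked on simulated probe sets without tied values, so the check does not cover tied ones. About 5% of receptor probe sets exceed the cutoff by construction, so the calls have no known false rate, and the precision is limited by the number of arrays.

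The members and lists were chosen with earlier results of these data known. The text names all members and, of each pathway list, the 2 highest genes, the lowest and those with a range over 1 log2 unit. Hbb-y, Klf1, Alas2, Rhag, Gata1, Fos, Ret, Pax2, Gata3, Klf4 and Ptpn7 were named after their values were seen. Alternatives covered the cutoff, the background set, the probe set per gene, the spread of tied values, scaling, the prior and leaving out each array.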

Additional observations from a re-analysis of the deposited data

How the results depend on the processing

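The height of the cutoff limits these results, because it is set by signal over background. With the receptors' 99th percentile as cutoff, 7190 of all genes, 5 phosphatase genes of the Dusp family, 6 other phosphatase genes and 11 immediate early genes were above background. A cutoff 1 log2 unit higher than reported gave 5653 of all genes, 2 of the family, 5 other phosphatases, 7 MAP kinase targets, 4 ERK feedback genes and 8 immediate early genes. The other 109 of 119 recomputed counts stayed within 1.5 times the reported one. Leaving out an array gave 8 to 9 of the family. By construction of a higher cutoff, the distance from background at the 99th percentile was -0.23 for Dusp2, -0.13 for Dusp4, -0.16 for Dusp5 and -0.53 for Dusp8. With the raised cutoff it was -0.56 for Dusp2, -0.46 for Dusp4, -0.49 for Dusp5, -0.86 for Dusp8 and -0.028 for Dusp16 (log2 units), and Dusp1 and Dusp7 were no longer called. Dusp8 was at -0.87 from its dimmer probe set and at -0.36 from the mean of both. Its call also ended when probe sets tied on every array were given the median SD of all others (limma, adjusted p = 0.11). No paired analysis was possible because the arrays form one group.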

Other observations

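The windows upstream of the 8 phosphatase genes with a RefSeq promoter held 56.4% to 77.2% G and C bases, against a median of 52.4% over all 32851 windows. The lowest share belonged to Dusp6 and the highest to Dusp7. The GC box GGGCGG was found in 6 of the 8, against 32.7% of all windows, and the CCAAT box in 5 of the 8, against 33.8%. The CRE half-site TGACG, which the full CRE contains on both strands, was found in Dusp1, Dusp5, Dusp8 and Dusp16, against 17.8% of all windows. The TATA box TATAAA was found in none of the 8 and in 12.4% of all windows. The shares of all windows were not matched for G and C content, which in each of the 8 exceeded the median over all windows. The phosphatase genes with a half-site include both the variable Dusp1 and Dusp5 and Dusp8, which held one value on all 3 arrays. Such ties were held by 50.8% of all genes, so they do not show a stable transcript. A link between half-sites and array differences was not tested.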
